A study of Mus musculus with 2 samples.

Results

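The muscarinic and nicotinic acetylcholine receptor genes of newborn mouse forebrain were followed as 10 genes of the 43346 in the deposited tables, matched by Ensembl identifier. They comprised 4 muscarinic receptor genes (Chrm1, Chrm2, Chrm3 and Chrm4) and 6 nicotinic subunit genes (Chrna3, Chrna4, Chrna5, Chrna7, Chrnb2 and Chrnb4). Total RNA longer than 200 nucleotides, depleted of ribosomal RNA, was sequenced as stranded paired-end reads in 2 libraries. Both came from forebrain of B6NTac;B6NCrl/Lap mice at age 0 days, males and females pooled, with no treatment named. Replicate 1 pooled 15 mice, and the pool size of replicate 2 is not given here. The labels describe independent tissue isolates but give both the same donor identifier. The libraries form 1 group, so genes were compared with each other inside each library, and the isolates with one another. Each ± is an SD over n = 2 libraries.

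Acetylcholine reaches neurons through a pair of unrelated receptor families. Muscarinic receptors are G protein-coupled: the products of Chrm1 and Chrm3 act through Gq proteins and phospholipase C, and those of Chrm2 and Chrm4 through Gi/o proteins, which inhibit adenylyl cyclase. Nicotinic receptors are pentameric cation channels built from alpha and beta subunits, and their subunit makeup sets affinity, desensitisation and calcium permeability. In adult brain the muscarinic receptors of cortex and striatum and the nicotinic receptors containing the Chrna4 and Chrnb2 products are the best known.

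Replicate 1 held 62516003 expected counts and replicate 2 held 65912060. Levels are in coding TPM, which is deposited TPM (the share of transcripts, a measure per length) rescaled so that protein-coding genes alone make up the whole in each library, by factors of 7.38 and 4.54. The rescaling is needed because protein-coding genes held 13.5% of deposited TPM in replicate 1 and 22% in replicate 2. Marker lists were set beside the tissue label. All 6 cortical projection neuron markers and all 7 striatal projection neuron markers exceeded 1 coding TPM in both libraries. So did 63.3% of protein-coding genes and all 7 meningeal markers, so passing this level cannot test the label. Of 6 autonomic ganglion markers, the factors Phox2a and Hand2 had 0 counts in both.

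Of the 10 receptor genes, 9 reached 1 coding TPM in both libraries, against 63.3% of 21474 protein-coding genes. Their levels spanned from Chrnb2 at 41.9 ± 6.85 coding TPM to Chrnb4 at 0.142 ± 0.00812, and 5 genes lay above the median level of protein-coding genes (8.25 coding TPM). The 6 nicotinic genes together summed to 79.9 and 89.5 coding TPM in replicates 1 and 2, and the 4 muscarinic genes to 42.1 and 43.9. These are transcript levels of genes, and nicotinic receptors need several subunits each, so the sums do not count receptors. Ordered by mean level, the genes ran Chrnb2, Chrna7, Chrm1, Chrna4, Chrm3, Chrm2, Chrm4, Chrna3, Chrna5 and Chrnb4. Of the 9 neighbouring pairs in this order, 6 did not overlap over the libraries. The values of Chrm1 and Chrna4 overlapped, as did those of Chrm2 and Chrm4 and those of Chrm4 and Chrna3, so their order was not resolved. The replicate 1 value of Chrm3 includes 3.18 coding TPM of the noncoding transcript Chrm3-203. Its coding transcripts, at 6.42 and 2.07 in that library, together lay under Chrm2 in replicate 2. The separation of Chrm3 from Chrm2 thus depends on Chrm3-203.

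**Figure D1:**
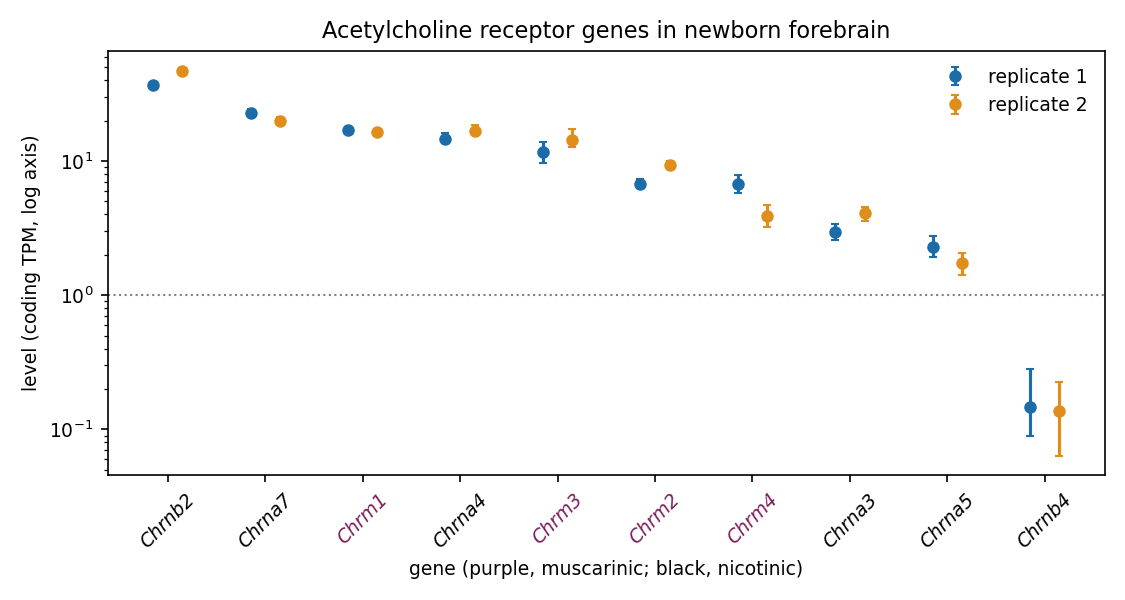
Levels of the 10 acetylcholine receptor genes (coding TPM, log axis) in each of the 2 newborn forebrain libraries, with the deposited interval bounds as bars and a dotted line at 1 coding TPM. Chrnb2 is highest in both libraries at 37.1 and 46.8 coding TPM, and Chrnb4 is lowest and alone under the line.

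Chrnb2 encodes the beta2 subunit, which pairs with alpha4 in the most common heteromeric nicotinic receptor of brain. It had 37.1 coding TPM in replicate 1 and 46.8 in replicate 2, from 4177 and 5751 counts, and stood at percentile 76.9 of protein-coding genes. The gene (ENSMUSG00000027950.3) lies on mm10 chromosome 3, 89746195 to 89764632, minus strand. In GENCODE M21, the annotation used for coordinates, its transcript Chrnb2-201 overlaps Adar on the other strand by 1014 nt. The quantified Chrnb2-201 was shorter, at 5384 nt against 6399 nt, so its own overlap with Adar was not determined. The libraries keep strand, per the labels. The bases before the RefSeq start of Chrnb2 are shown because it was the highest receptor gene. As in the other promoters printed here, they are the 250 bases upstream of the start on the gene's strand (RefSeq, GRCm38.p6), in lower case with capitals for each GC box, GGGCGG or CCGCCC. The Chrnb2 stretch is chr3:89764633-89764882 on the minus strand.
Chrnb2: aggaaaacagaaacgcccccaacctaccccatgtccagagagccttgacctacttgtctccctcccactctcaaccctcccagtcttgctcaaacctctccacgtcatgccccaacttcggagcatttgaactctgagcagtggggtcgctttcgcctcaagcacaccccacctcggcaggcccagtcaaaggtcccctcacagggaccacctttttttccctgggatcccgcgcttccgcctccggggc
No GC box stood in these bases, whereas 32.7% of 32851 promoters in the same table held at least 1. They held 1 E-box (CANNTG on either strand), which 66.2% of promoters held at least once. These matches describe letters only.

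Chrna4, the alpha4 subunit gene (ENSMUSG00000027577.10, chromosome 2, 181018380 to 181043546, minus strand), had 14.5 coding TPM in replicate 1 and 16.8 in replicate 2, from 1343 and 1696 counts. Its level was thus well under that of its partner subunit. The TPM ratio of Chrna4 over Chrnb2 was 0.39 in replicate 1 (deposited TPM bounds give 0.365 to 0.453) and 0.358 in replicate 2 (0.339 to 0.413). Chrna4 exceeded Chrna3, the alpha subunit typical of autonomic ganglia and medial habenula, by ratios of 4.9 (4.05 to 6.31) and 4.1 (3.56 to 5.21).

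Chrna7 encodes the alpha7 subunit, which forms receptors of that subunit alone with high calcium permeability. It was the second highest receptor gene, with 23 coding TPM in replicate 1 and 20 in replicate 2, from 930 and 878 counts. The gene (ENSMUSG00000030525.7) spans 114 kb of chromosome 7, 63098692 to 63212569, minus strand. The ratio of Chrna7 over Chrna4 was 1.59 in replicate 1 (1.32 to 1.76) and 1.2 in replicate 2 (0.999 to 1.32), so the excess over Chrna4 was small and in replicate 2 its bounds reached equality.

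Chrna5, Chrna3 and Chrnb4 are 3 genes of 1 cluster on chromosome 9, together 67.9 kb long, and their levels differed widely despite their adjacency. Chrna5 (ENSMUSG00000035594.9, 54980880 to 55007779, plus strand) encodes the accessory alpha5 subunit, which joins receptors but does not form the agonist site by itself. Its 3′ end faces that of Chrna3 (ENSMUSG00000032303.6, 55010111 to 55026562, minus strand) across 2331 nt. Chrnb4 (ENSMUSG00000035200.6, 55028154 to 55048779, minus strand) encodes the beta4 subunit of ganglionic and habenular receptors and its 3′ end lies 1591 nt from the 5′ end of Chrna3. Chrna3 had 2.95 coding TPM in replicate 1 and 4.09 in replicate 2, from 188 and 280 counts. Chrna5 had 2.29 and 1.73 coding TPM, from 127 and 102 counts, under Chrna3 in each library. Chrnb4 was the lowest receptor gene, with 12 counts in replicate 1 (95% exact Poisson interval 6.2 to 21) and 10 in replicate 2 (4.8 to 18.4). These intervals cover counting error only, since amplified copies of a molecule were not marked and can be counted more than once.

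The TPM ratio of Chrna3 over Chrnb4 was 20 in replicate 1 (9.05 to 38.3) and 30 in replicate 2 (15.9 to 71.5), and that of Chrnb2 over Chrnb4 was 251 (126 to 425) and 343 (200.1 to 752). Deposited TPM has 2 decimals, which is coarse for Chrnb4 at 0.02 and 0.03 TPM. Recomputed from counts and effective lengths, the ratio of Chrna3 over Chrnb4 was 17.6 and 31.6 and that of Chrnb2 over Chrnb4 219 and 362. The ratio of Chrna5 over Chrna3 was 0.775 (0.566 to 1.07) and 0.422 (0.31 to 0.575), so the order of these neighbours was beyond the bounds in replicate 2 only.

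The promoters of the cluster are shown beside these levels because the genes adjoin yet differ by over an order of magnitude. The Chrna3 bases are chr9:55026563-55026812 and the Chrnb4 bases chr9:55048545-55048794, both on the minus strand. RefSeq gives Chrna5 a pair of starts, with bases chr9:54980630-54980879 (start 1) and chr9:54981238-54981487 (start 2) on the plus strand. Start 1 opens Chrna5-201, the transcript quantified in the tables.
Chrna3: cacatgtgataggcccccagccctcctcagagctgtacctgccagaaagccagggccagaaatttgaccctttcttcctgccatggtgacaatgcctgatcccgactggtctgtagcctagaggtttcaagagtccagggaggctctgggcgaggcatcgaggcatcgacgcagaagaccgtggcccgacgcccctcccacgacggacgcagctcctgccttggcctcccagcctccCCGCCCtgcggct
Chrnb4: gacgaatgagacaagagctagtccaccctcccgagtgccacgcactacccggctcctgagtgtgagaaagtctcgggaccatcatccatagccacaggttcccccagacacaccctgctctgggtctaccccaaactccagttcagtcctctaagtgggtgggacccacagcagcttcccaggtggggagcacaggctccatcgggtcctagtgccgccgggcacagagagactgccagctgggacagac
Chrna5 start 1: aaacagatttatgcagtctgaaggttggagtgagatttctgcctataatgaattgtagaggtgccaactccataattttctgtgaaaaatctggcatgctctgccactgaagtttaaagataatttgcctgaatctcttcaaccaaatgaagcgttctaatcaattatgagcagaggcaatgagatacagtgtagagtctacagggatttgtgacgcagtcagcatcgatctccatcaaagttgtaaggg
Chrna5 start 2: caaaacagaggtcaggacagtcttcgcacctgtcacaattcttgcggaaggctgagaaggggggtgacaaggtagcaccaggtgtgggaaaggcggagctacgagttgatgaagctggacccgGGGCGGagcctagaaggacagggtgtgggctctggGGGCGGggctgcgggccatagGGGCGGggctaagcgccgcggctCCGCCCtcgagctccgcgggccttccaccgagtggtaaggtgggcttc
Chrna3 held 1 GC box and 2 E-boxes, Chrnb4 no GC box and 2 E-boxes. The Chrna5 bases held 4 GC boxes before start 2 and none before start 1, where GC content was 40% against 65.2% before start 2 and a median of 52.4% over all promoters in the table. None of the 4 stretches held TATAAA or its complement TTTATA, which 12.4% of promoters held. At least 2 GC boxes were held by 16.7% of promoters. In all, 9 of the 10 receptor genes matched the promoter table.

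**Figure D2:**
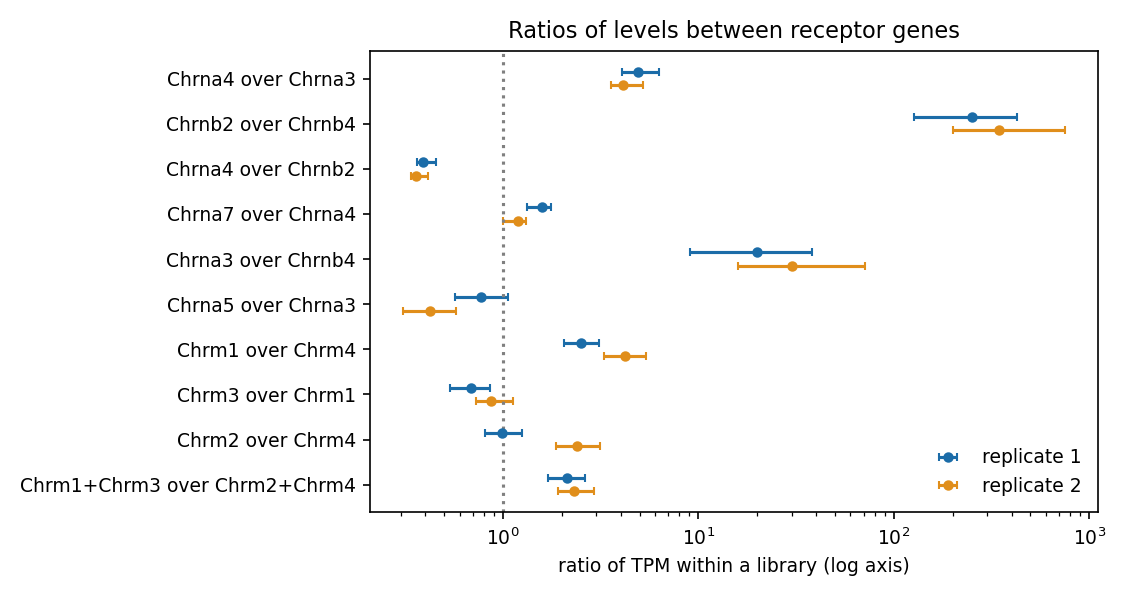
Ratios of TPM between receptor genes within each library (log axis), with bounds from the deposited TPM intervals as bars and a dotted line at equality. Chrnb2 over Chrnb4 is the highest ratio at 251 and 343, and Chrm2 over Chrm4 differs most between the libraries, at 0.989 and 2.38.

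Among the muscarinic genes, the Gq-coupled Chrm1 and Chrm3 were higher than the Gi/o-coupled Chrm2 and Chrm4 in each library. Chrm1 (ENSMUSG00000032773.5, chromosome 19, 8663789 to 8683587, plus strand), the principal muscarinic receptor of cortex and hippocampus in adults, had 17 coding TPM in replicate 1 and 16.4 in replicate 2, from 1812 and 1725 counts. Chrm3 (ENSMUSG00000046159.11, chromosome 13, 9875486 to 10360847, minus strand), known from smooth muscle and glands as well as brain, had 11.6 and 14.3 coding TPM from 665 and 1140 counts. It spans 485 kb, the longest of the 10 genes. Chrm2 (ENSMUSG00000045613.5, chromosome 6, 36388084 to 36528414, plus strand), an autoreceptor of cholinergic neurons, had 6.72 and 9.31 coding TPM from 799 and 1179 counts. Chrm4 (ENSMUSG00000040495.4, chromosome 2, 91927249 to 91928688, plus strand), a receptor of striatal projection neurons, had 6.79 and 3.9 coding TPM from 177 and 110 counts.

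The sum of Chrm1 and Chrm3 over the sum of Chrm2 and Chrm4 was 2.12 in replicate 1 (1.69 to 2.62) and 2.32 in replicate 2 (1.91 to 2.91), so this balance differed little between the isolates. Chrm1 held 38.8 ± 2.13% of the muscarinic sum, Chrm3 30.1 ± 3.56%, Chrm2 18.6 ± 3.7% and Chrm4 12.5 ± 5.12%. All Chrm3 values here include its noncoding transcript Chrm3-203. The ratio of Chrm3 over Chrm1 was 0.683 (0.534 to 0.861) and 0.873 (0.73 to 1.13), its bounds reaching equality in replicate 2. The ratio of Chrm1 over Chrm4 was 2.5 (2.05 to 3.09) and 4.2 (3.3 to 5.41), without overlap of the bounds. The isolates differed most in the ratio of Chrm2 over Chrm4, at 0.989 (0.805 to 1.26) in replicate 1 and 2.38 (1.87 to 3.12) in replicate 2, and these bounds did not overlap either.

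All 4 muscarinic genes carry their coding sequence on 1 exon, whereas the nicotinic genes have 6 coding exons each apart from Chrna7 with 10, counted in the leading transcript. The annotation behind the tables gives Chrm4 as a stretch of 1440 nt, which is its coding exon with the stop codon, although RefSeq places the gene from 91922189 to 91929835. Reads of Chrm4 outside the coding exon therefore entered neither its count nor its length. Transcript shares could be estimated for the 4 genes with several transcripts, and 3 of these had the same leading transcript in both libraries.

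The exception was Chrm1. Its transcript Chrm1-202, which has 1 more exon than Chrm1-201 and ends 2020 nt further downstream, held 54.4% of the gene's TPM in replicate 1 and 35.2% in replicate 2. Chrm1-201 held 39.3 and 56.6%, and Chrm1-203 held 6.34 and 8.23%. In coding TPM, Chrm1-202 stood at 9.23 (bounds 8.39 to 10) and 5.77 (5.17 to 6.36), and Chrm1-201 at 6.65 (5.53 to 7.75) and 9.26 (8.27 to 10.1), so the bounds of neither transcript overlapped between the libraries. Both carry the coding exon, and the deposited intervals do not include variation between isolates. The gene's effective length in the tables was 4862 nt in replicate 1 and 4378 in replicate 2, so counts per gene and levels per length moved differently for Chrm1.

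Chrm3-202, with 5 exons, led Chrm3 with 55 and 74.2% in replicates 1 and 2, while the noncoding Chrm3-203, of 584 nt, held 27.4 and 7.22%. The share of Chrm3-203 rested on 23.5 and 7.82 counts, and its coding TPM bounds, 1.39 to 5.24 and 0.0003 to 3.66, overlapped. Chrm2-202 held 100 and 97.3% of Chrm2. Chrna4-201 held 97.9 and 97.8% of Chrna4, and Chrna4-202 and Chrna4-203 had 0 counts in both libraries. The other 6 genes have 1 transcript each in the tables, so their shares carry no information.

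**Figure D3:**
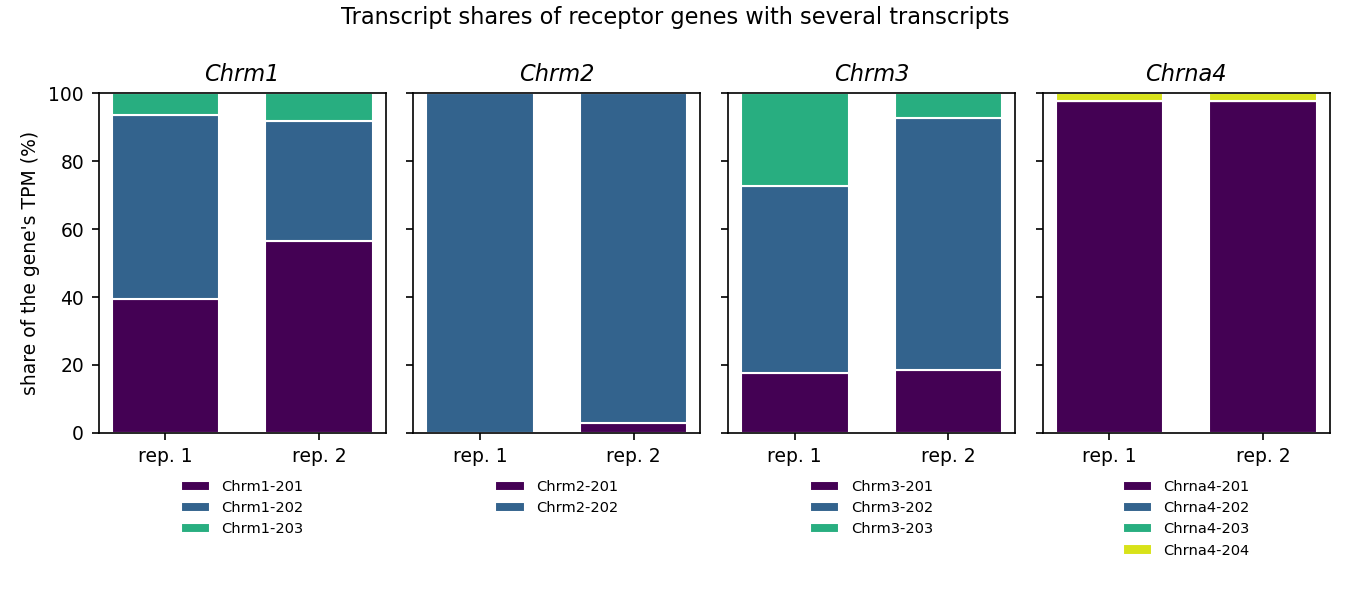
Share of each gene's TPM held by its transcripts (percent) in replicates 1 and 2, for the 4 receptor genes with several transcripts. Chrm1 changes its leading transcript, with Chrm1-202 at 54.4 and 35.2%, whereas Chrna4-201 holds 97.9 and 97.8%.

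Between the isolates, none of the 10 receptor genes differed by 2-fold or more. Ratios are log2 of replicate 1 over replicate 2 on counts scaled by TMM (trimmed mean of M values), with an SE from counting and the deposited posterior SD. They compare the reads of 1 library with those of another, have no replicate check, and the test treats reads as independent. By the exact binomial test, with Benjamini-Hochberg adjustment over 17544 genes, 8 of the 10 had an adjusted p under 0.05, as did 65.4% of all genes tested, so passing it sets the receptor genes little apart. Of all genes tested, 10.4% also passed 2-fold, 4.94% higher in replicate 1 and 5.51% higher in replicate 2, and 0 of the 10 receptor genes did. The share was 7.3% among protein-coding genes alone. It was 2.77% among the 13681 genes averaging at least 100 counts, which include 9 of the receptor genes. The lack of calls thus sets the receptor genes little apart. The unadjusted p was under 0.05 for 8 of the 10 receptor genes. The median absolute log2 ratio was 0.36 over the 10 receptor genes and 0.26 over all genes tested.

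Chrm4 had the ratio farthest from 0, at 0.96 (SE 0.17, adjusted p = 9.5e-08 by the exact binomial test), a 1.95-fold excess in replicate 1 that fell just short of the threshold. Chrna5 followed at 0.59 (SE 0.19, adjusted p = 0.0042 by the exact binomial test), then Chrnb4 at 0.53 with an SE of 0.60 that spans 0, Chrna7 at 0.36 (SE 0.07) and Chrm1 at 0.35 (SE 0.05). Ratios below 0 were those of Chrm3 at -0.50 (SE 0.07), Chrna3 at -0.29 (SE 0.14), Chrm2 at -0.28 (SE 0.07), Chrnb2 at -0.18 (SE 0.03) and Chrna4 at -0.06 (SE 0.05). The adjusted p was 0.0498 for Chrna3, 0.346 for Chrna4 and 0.466 for Chrnb4 by the exact binomial test. Scaled by library totals, Chrna4 stood at -0.25 with an adjusted p of 3.6e-06 by the exact binomial test, and Chrna5 at 0.40 with 0.0561. Coding TPM scales otherwise than TMM: its median log2 ratio over 15099 protein-coding genes was -0.15. Relative to that median, the coding TPM ratio of Chrm1 was 0.20 and that of Chrm3 -0.15, both closer to 0 than by counts, and that of Chrm4 was 0.95. The Chrm3 level includes the noncoding Chrm3-203, at 3.18 and 1.04 coding TPM in replicates 1 and 2, on 23.5 and 7.82 counts. Its coding transcript Chrm3-202 stood at 6.42 and 10.6. The effective length of Chrm3 was 2610 nt in replicate 1 and 3319 in replicate 2, so its coding TPM ratio depends on the transcript estimates.

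**Figure D4:**
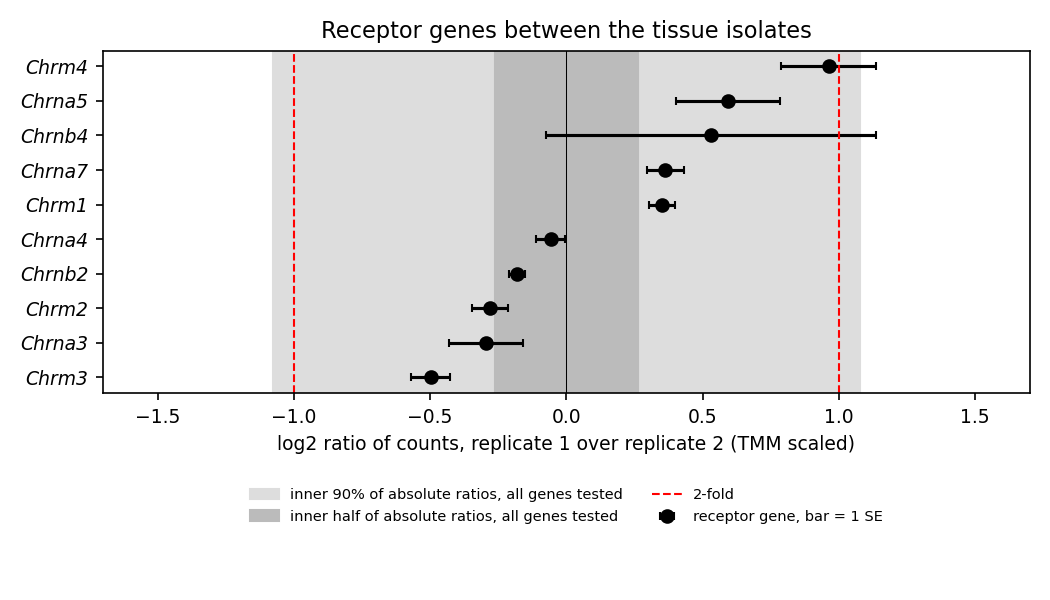
Log2 ratio of counts, replicate 1 over replicate 2, for each receptor gene (points, with 1 SE as bars), over grey bands that hold the inner parts of the absolute ratios of all 17544 genes tested and red lines at 2-fold. All 10 points lie inside the red lines, from Chrm4 at 0.96 to Chrm3 at -0.50.

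Markers of neurons and of neighbouring tissue moved between the isolates as well, and their part in these ratios was not tested. The 7 striatal projection neuron markers all had ratios above 0, with a median of 0.58 and sums of 323 and 229.6 coding TPM in replicates 1 and 2, and none was called. The 6 cortical projection neuron markers summed to 642 and 547 coding TPM, with 4 ratios above 0 and none called. All 10 diencephalon markers had ratios below 0, with sums of 45.9 and 87.6 coding TPM. Of these, 6 were called higher in replicate 2 (Otp, Sim1, Rax, Irx3, Hmx3 and Nkx2-1), as were 5.51% of all genes tested. All 7 meningeal markers had ratios below 0, with sums of 384 and 948, and Col1a1, Col1a2 and Lum were called, beside the same 5.51%. The 7 factors of basal forebrain cholinergic neurons had ratios below 0 and sums of 128 and 208 coding TPM, with Zic4 highest at 69.2 ± 37.2, and none was called. Gbx2 is on both this list and the diencephalon list, so these lists are not separate. No marker of astrocytes, oligodendrocyte lineage or microglia was called, of 6 each. In bulk tissue, fewer cells of a type and less RNA per cell cannot be told apart.

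Habenula markers, given because Chrna3 and Chrnb4 are typical of medial habenula, summed to 29.9 and 44.1 coding TPM over 7 genes in replicates 1 and 2. They did not move together: of the 6 tested, 3 had ratios above 0 and 3 below, with a median of -0.03. The highest was Lrrc55 at 17.4 and 20.6 coding TPM, and Nhlh2 had 6.72 and 14.1 and was not called. Lrrc55 and Nhlh2 made up most of each sum, whereas Gpr151 had 1.55 and 1.73, Pou4f1 0.738 and 2.77, and Irx2 2.95 and 2.32. The habenular neuropeptide gene Tac2 had 5 counts in replicate 1 and 26 in replicate 2. It was called higher in replicate 2, as were 5.51% of all genes tested, and Gng8 had 0 counts in both. The autonomic ganglion list reached 8.42 and 15.6 coding TPM, nearly all of it Th, the tyrosine hydroxylase gene that central dopamine neurons also express, at 11.4 ± 5.26.

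The other receptor genes of the family were lower than most of the 10. Chrm5, the remaining muscarinic receptor gene, had 3.69 and 4.54 coding TPM in replicates 1 and 2 and was not called. It stood above Chrna5, Chrna3 and Chrnb4 in each library and above Chrm4 in replicate 2. Chrna2 had 0.517 and 0.227 coding TPM, Chrna6 0.738 and 0.227, and Chrnb3 0.148 and 0.499. These 3 subunit genes were called, on at most 50 counts each, as were 10.4% of all genes tested. Chrna2 (ratio 1.22, SE 0.41) and Chrna6 (1.80, SE 0.44) were higher in replicate 1, and Chrnb3 (-1.74, SE 0.46) was higher in replicate 2. Of the cochlear subunit genes, Chrna9 had 0 and 4 counts, and Chrna10 had 10 and 31 counts and was called higher in replicate 2. Of the 5 muscle subunit genes none reached 1 coding TPM in both libraries. Chrnd and Chrng had 0 counts in both, which allows up to 3 counts, Chrna1 had 2 and 3, Chrne 8 and 0, and Chrnb1 32 and 15, called higher in replicate 1.

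Genes that make and load acetylcholine were as low as the lesser receptor genes, and the degrading enzyme was higher. Chat, which makes acetylcholine, had 0.741 ± 0.108 coding TPM, the vesicular transporter gene Slc18a3 2.21 ± 0.207, and the choline transporter gene Slc5a7 2.94 ± 0.60, and none of the 3 was called. Ache, acetylcholinesterase, had 46.9 coding TPM in replicate 1 and 70.4 in replicate 2, above every receptor gene in each library, and was not called (ratio -0.42, SE 0.04). Bche, butyrylcholinesterase, had 2.43 ± 0.0948. Of the genes for anchors of the enzyme, Prima1 had 21 and 10 counts and was called higher in replicate 1, and Colq had 0 and 25 and was called higher in replicate 2. Among all genes tested, 4.94% were called higher in replicate 1 and 5.51% higher in replicate 2.

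Genes for nicotinic receptor assembly and modulation and for muscarinic signalling all exceeded 1 coding TPM in both libraries, as did 63.3% of protein-coding genes. None of them was called, against 10.4% of all genes tested and 2.77% of those averaging at least 100 counts. The lack of calls thus sets them little apart. The 9 assembly and modulator genes had a median of 70.2 ± 16.2 coding TPM. They were led by Ly6h, a modulator of alpha7 receptors, at 811 ± 35.4, the adhesion protein gene Nptn at 274 ± 13.6, and Tmem35a, a chaperone that alpha7 receptors need, at 202 ± 12.9, with Lypd6 lowest at 15.1 ± 4.71. The 9 genes of the Gq pathway had a median of 63.3 ± 1.54, with Gnaq at 124 ± 18.9, Rgs4 at 118 ± 12.7 and the calcium release channel gene Itpr1 lowest at 23.3 ± 3.74. The 9 genes of the Gi/o pathway had a median of 107 ± 4.84, with Gnao1 at 288 ± 25.4, Gnai2 at 204 ± 14.7, the adenylyl cyclase gene Adcy1 at 132 ± 30.8 and the potassium channel gene Kcnj9 lowest at 7.78 ± 0.796. These signalling genes serve many receptors besides the muscarinic ones.

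**Figure D5:**
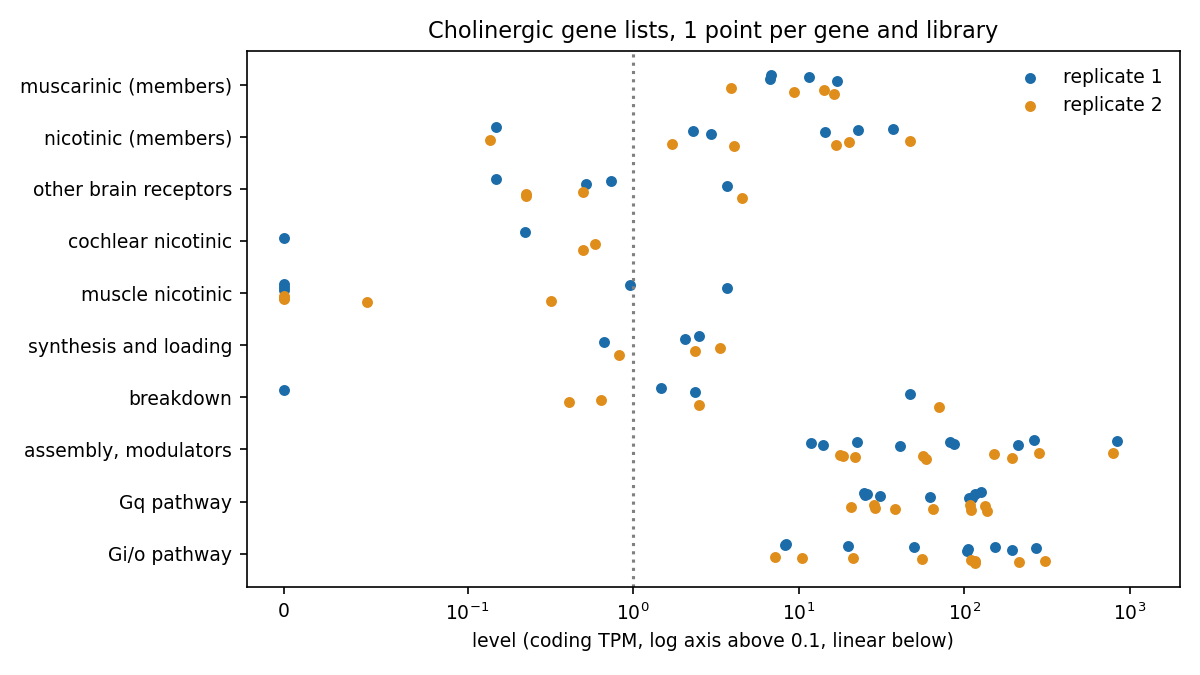
Levels of the receptor genes and of other cholinergic gene lists (coding TPM, log axis above 0.1 and linear below), with 1 point per gene and library and a dotted line at 1 coding TPM. The assembly, Gq and Gi/o lists lie wholly above 1, whereas the synthesis list lies between 0.665 and 3.36 and the muscle subunit list reaches 0.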

How the data were processed

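Per the labels, 2 stranded rRNA-depleted libraries of newborn forebrain were sequenced. Gene and transcript tables were deposited per library on mm10 with GENCODE M4, per the text deposited with each sample. The sources used here name no aligner or quantifier. The deposited expected counts, posterior mean counts and posterior SDs are unscaled, and expected counts were rounded for the test. The deposited TPM is relative to all quantified transcripts of a library. The deposited FPKM served as an alternative. The deposited isoform percent gives each transcript's share of a gene.

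Of the genes, 42462 (98%) matched GENCODE M21 by identifier, which gave symbols and mm10 coordinates. For 12 of the 18 receptor transcripts the length was the same in both releases. The remaining 6, all of nicotinic genes, differ in length. Library sizes were scaled by TMM in edgeR 4.0.16 (R 4.3.3) on the genes averaging 10 counts or more, while DESeq2 1.42.0 gave alternative size factors. Ratios had 0.5 added to each count. A call needed a difference of 2-fold or more with adjusted p below 0.05 in a two-sided exact binomial test (scipy 1.17.1, Benjamini-Hochberg by statsmodels 0.14.6). The test was run on simulated counts drawn without variation between isolates. In edgeR these libraries varied beyond counting with a common coefficient of variation of 0.256, which that simulation does not cover. A count of 0 allows up to 3 counts. Motifs were searched on both strands with overlaps counted.

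The receptor genes and gene lists were chosen with earlier results of these data known. Named were all receptor genes, every gene of lists of up to 5, the 3 highest and the lowest of longer lists, and the highest, lowest and called members of marker lists. Where the text gives a marker list by sums or calls alone, its highest and lowest are left out, and a few genes that the rule names are not reported here. The lists were receptors, synthesis, breakdown, modulators, Gq and Gi/o pathways, and markers of habenula, cholinergic neurons, autonomic ganglia, cortex, striatum, diencephalon, meninges and glia. Likeness of pattern cannot be measured with 2 libraries. Alternatives were other thresholds, units, denominators, scalings, count filters, posterior means, protein-coding genes alone, short transcripts left out and each replicate left out. TPM recomputed from counts and effective lengths was chosen after seeing the data.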

Additional observations from a re-analysis of the deposited data

How the results depend on the processing

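The number of receptor genes at 1 coding TPM or more in both libraries was 9, and it was 5 with deposited TPM not rescaled. The number called between the isolates was 0, and at a 1.5-fold threshold it was 2, Chrm4 and Chrna5. Beyond these, 3 of the levels, TPM ratios and shares moved by more than the SD over libraries. The mean of Chrm1 was 17.5 coding TPM without mitochondrial genes in the denominator, that of Chrnb4 0.154 by FPKM, and the share of Chrna4-201 93.6% by posterior means. That rule could not flag leaving out 1 of 2 libraries, which always shifts a mean by less than the SD. Log2 ratios were judged by sign and call instead. Under library totals in place of TMM every log2 ratio fell by 0.20, and no receptor gene changed sign. By the exact binomial test, 3 genes lay on either side of an adjusted p of 0.05 over the settings: Chrna3 ranged over 5.7e-04 to 0.0504, Chrna4 over 3.6e-06 to 0.346 and Chrna5 over 0.0038 to 0.0561. Chrna4 passed under library totals, at a log2 ratio of -0.25. Calls over all genes numbered 1833, against 379 with a mean of at least 100 counts, 2752 with no filter, 1109 among protein-coding genes alone and 3475 at 1.5-fold. Leaving out each replicate in turn gave 9 genes at 1 coding TPM. The ratio of Chrm2 over Chrm4, 1.69 as a mean, was 2.38 without replicate 1 and 0.989 without replicate 2, so it crossed equality, whereas the other 9 of the 10 ratios stayed on 1 side. A ratio between isolates cannot be given without either replicate. No paired analysis was possible because the libraries form 1 group. Depth limits Chrnb4 and the lesser subunit genes, which rest on 50 counts or fewer per library.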
